A study of Homo sapiens with 18 samples.

Results

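The genes described here are 10 that encode enzymes of glycolysis and of lactate formation, taken from a fixed list of names: HK1, GPI, ALDOA, TPI1, GAPDH, PGAM1, ENO1, PKM, LDHA and LDHB. They are 10 of 59792 genes in the RefSeq table used here (GRCh38.p14, the assembly of hg38). A peak was assigned to a gene when it overlapped the gene's annotated span by at least 1 bp. In all, 57 peaks fell in these genes, 46 for wild-type MYC, 10 for the mutant 3A and 1 for the mutant 7A.

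The study mapped RNA bound by the transcription factor MYC with eCLIP, an assay that crosslinks RNA to protein with ultraviolet light, precipitates the protein and sequences the RNA held by it. The osteosarcoma line U2OS was used, with the endogenous MYC knocked out and a FLAG-tagged MYC allele, wild type, 3A or 7A, placed under doxycycline control. The peak lists come from cells given 1 µg/mL doxycycline for 24 h, with 2 libraries precipitated by the FLAG antibody and 1 input library per allele. The knockout and the inducible FLAG-tagged MYC are common to all groups, and the labels give neither the residues changed in 3A and 7A nor whether a line is 1 clone. There is 1 list per allele, with 2149 peaks for wild type, 103 for 3A and 88 for 7A, so no value has a replicate check and no test over samples could be made. Depth is unknown, and uninduced cells were not analysed here. The lists hold no expression values, so the cell line was not checked against markers, and the amount of a gene's RNA and the share of it that was bound cannot be told apart.

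Glycolysis turns glucose into pyruvate in the cytosol. Hexokinase traps glucose as its phosphate, an isomerase and phosphofructokinase prepare the sugar, aldolase cleaves it, and triosephosphate isomerase interconverts the products. The lower part of the pathway, from glyceraldehyde-3-phosphate dehydrogenase to pyruvate kinase, yields ATP, and lactate dehydrogenase reduces pyruvate to lactate. Proliferating tumour cells run this pathway at a high rate, and several of its genes, LDHA among them, are textbook targets of MYC as a DNA-binding factor. The measurement here is of RNA, not of DNA.

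In 3 genes, ENO1, PKM and LDHB, a wild-type peak reached into the first 30 transcribed bases after a start site in the RefSeq promoter table. Their start regions are shown because they are where the peaks and the promoter sequences meet. Each sequence is from RefSeq (GRCh38.p14), 5′ to 3′ on the strand of the gene, from 250 bases before the start to base 30 of the transcript, and capitals mark the bases that the wild-type peak covers. The ENO1 sequence is chr1:8878657-8878936, the PKM sequence is chr15:72231161-72231440 and the LDHB sequence is chr12:21657813-21658092, all on the minus strand.
ENO1: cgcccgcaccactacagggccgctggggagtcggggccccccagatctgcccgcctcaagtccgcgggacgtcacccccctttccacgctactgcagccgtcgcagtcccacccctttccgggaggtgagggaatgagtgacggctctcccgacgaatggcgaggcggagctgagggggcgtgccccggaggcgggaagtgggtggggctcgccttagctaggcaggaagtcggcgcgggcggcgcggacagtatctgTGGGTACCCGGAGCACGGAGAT
PKM: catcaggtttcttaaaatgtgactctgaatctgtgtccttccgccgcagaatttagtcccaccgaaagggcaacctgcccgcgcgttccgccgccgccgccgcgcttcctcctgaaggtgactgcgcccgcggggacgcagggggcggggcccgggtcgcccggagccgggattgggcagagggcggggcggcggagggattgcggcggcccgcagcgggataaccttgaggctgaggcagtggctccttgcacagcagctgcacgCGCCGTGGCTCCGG
LDHB: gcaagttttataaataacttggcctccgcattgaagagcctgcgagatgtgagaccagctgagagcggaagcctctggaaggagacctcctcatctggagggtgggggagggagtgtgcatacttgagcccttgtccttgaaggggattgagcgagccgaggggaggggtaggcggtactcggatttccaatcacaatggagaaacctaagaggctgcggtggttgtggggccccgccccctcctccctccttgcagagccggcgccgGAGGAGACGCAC
The peak reached up to base 9 of the transcript in ENO1, base 17 in PKM and base 19 in LDHB, and none of the bases before the start was covered. The RNA covered was therefore on the transcribed side of the listed start in all 3 genes, which were picked because a peak reached there. In PKM the annotated span begins upstream of that start, at 72231591 against 72231190. The other gene with a summit near its start, TPI1, had no covered base in the window of its first listed start. Its peak began beyond that window and met the outer 42 bases of the window of its second listed start. The E-box CACGTG, the DNA word bound by MYC with MAX, is its own reverse complement, and was searched in the windows of 250 bases before to 50 after each listed start. It occurred in ALDOA, GAPDH and LDHA, in 3 of the 20 windows of the 10 genes (15.0%), against 8.34% of the 22199 windows of protein-coding genes and 7.26% of all 35116 windows in the table. None of the 3 start regions printed here holds these letters.

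Wild-type MYC had a peak in 9 of the 10 genes. Over all genes tested the share with a wild-type peak was 6.78% of 20056 protein-coding genes and 2.75% of all genes. The genes were listed with earlier results of these data known, so this count describes them and is no test. At least 3 wild-type peaks were found in 7 of the 10 genes, against 12.1% of the 1359 protein-coding genes with any wild-type peak, and at least 2 in 9 of the 10, against 29.6%. At least 5 were found in 4 of the 10, against 2.94%. PKM had 12, more than any other protein-coding gene, ENO1 had 9, LDHB 6, ALDOA 5, GAPDH 4, GPI and LDHA 3 each, and HK1 and TPI1 2 each. PKM, ENO1 and LDHB together held 27 of the 46 peaks. All 57 peaks of the 3 alleles lay on the strand of their gene. The same share over all genes is not given here, so this is not read as particular to the 10.

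**Figure D1:**
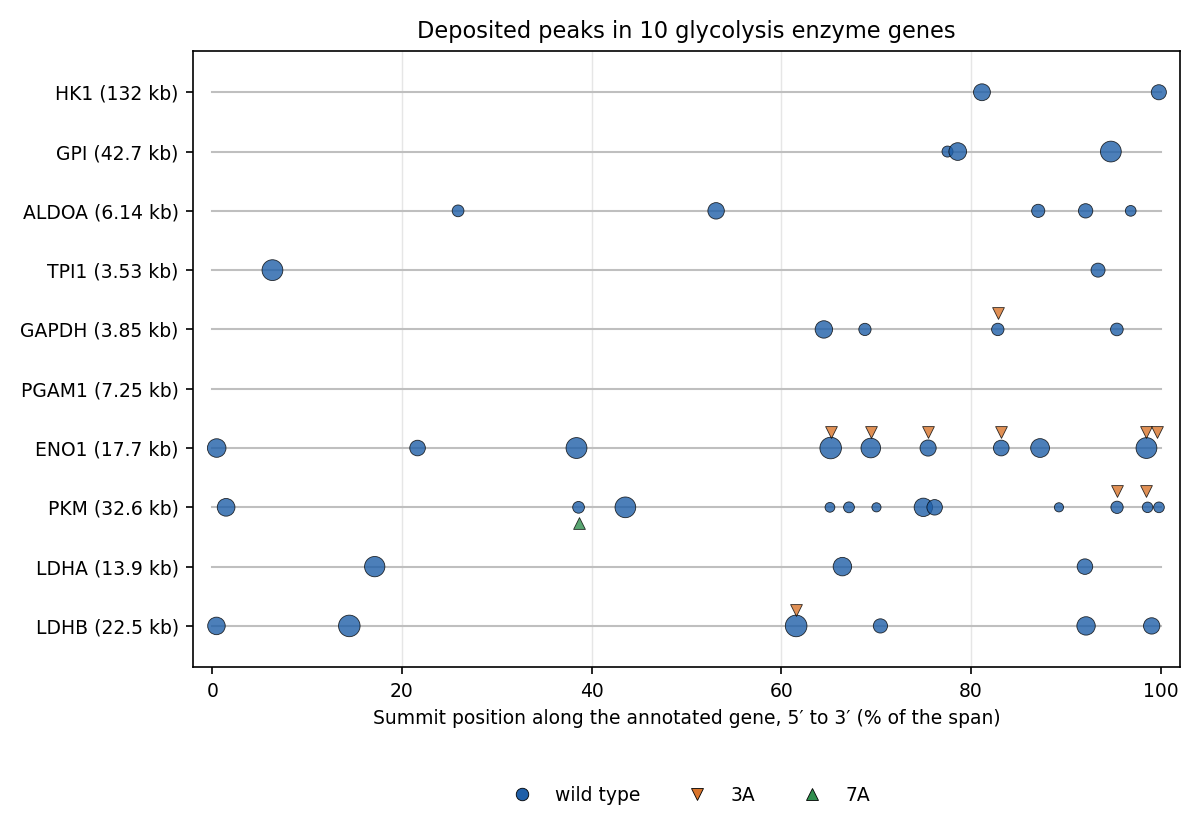
Summits of the peaks in the 10 genes, in pathway order, as percent of the annotated span from the 5′ end; circles are wild-type peaks (larger for a higher percentile of fold enrichment in the wild-type list), triangles pointing down are 3A peaks and the triangle pointing up is the 7A peak. Most circles lie beyond 60% of the span, PGAM1 has no peak, and 3A triangles appear in GAPDH, ENO1, PKM and LDHB.

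Peak number did not follow the length of the gene. HK1, the longest at 132 kb, had 2 wild-type peaks, while GAPDH and TPI1, of 3855 and 3529 bp, had 4 and 2. GAPDH had the highest density, 10.4 wild-type peaks per 10 kb, and 22.4% of its span lay in them. ALDOA followed with 8.14 per 10 kb, then TPI1 with 5.67, ENO1 with 5.09 and PKM with 3.69. HK1 had the lowest density of the 9 genes, 0.152 per 10 kb, with 0.219% of its span in peaks. The median over the 10 genes was 3.18 per 10 kb, and over the 1359 protein-coding genes with a wild-type peak it was 0.69. The median length was 15.8 kb in the first set and 19.5 kb in the second. Introns are part of these spans, and no exons were given in the annotation used here.

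The first steps of the pathway had few peaks, all in the 3′ part of the gene. HK1, which encodes the hexokinase that phosphorylates glucose, lies on chromosome 10 from 69270000 to 69401882. Its wild-type peaks had fold enrichments of 8.38 and 6.98 and lay at 81.2% and 99.8% of the span. Their −log10 q values, 9.39 and 7.35, ranked 1704 and 1891 of 2149, so both were among the weaker peaks by that measure. GPI, the isomerase that turns glucose 6-phosphate into fructose 6-phosphate, lies on chromosome 19 from 34359718 to 34402413. Its 3 peaks at 77.5%, 78.6% and 94.7% of the span had fold enrichments of 4.26, 9.33 and 16.5, highest at the last. The last one, from 34400088 to 34400473, ranked 199 of 2149 by fold enrichment and 184 by −log10 q. No mutant peak lay in either gene.

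ALDOA, TPI1 and GAPDH, the enzymes from the cleavage of the sugar to its oxidation, differed in where their peaks lay. ALDOA, the aldolase gene on chromosome 16 from 30064279 to 30070420, had 5 wild-type peaks from 25.9% to 96.8% of the span, 3 of them in the last 20%. Their fold enrichments were low for the list, from 4.03 to 8.09, with ranks from 1946 to 1086 of 2149. The first lay 111 bp after the last start listed for the gene, and its fold enrichment was 4.73. All 5 also overlap LOC112694756, a protein-coding gene model that spans ALDOA, so their gene of origin is uncertain.

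TPI1, the triosephosphate isomerase gene on chromosome 12 from 6867420 to 6870948, had a peak at either end. The first, from 6867589 to 6867896, reached a fold enrichment of 16.6, rank 195 of 2149, with its summit 224 bp into the gene. The other, at 93.4% of the span, had 6.27. GAPDH encodes glyceraldehyde-3-phosphate dehydrogenase and lies on chromosome 12 from 6534517 to 6538371. All 4 of its wild-type peaks lay beyond 60% of the span, at 64.5%, 68.8%, 82.8% and 95.4%. Their fold enrichments were 9.02, 5.06, 5.12 and 5.30. By −log10 q the order differed: 56.6, 33.8, 126 and 74.0, so that the peak at 82.8% ranked 35 of 2149 by −log10 q and 1733 by fold enrichment. No ALDOA or TPI1 peak was found for a mutant, and GAPDH had 1 peak for 3A.

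PGAM1, the phosphoglycerate mutase gene on chromosome 10 from 97426191 to 97433444, had 0 peaks in each of the 3 lists. The nearest wild-type peak on its strand lay 2914 kb away. With depth unknown, this says only that no peak there was in the lists used. None of the 13 PGAM1 pseudogenes in the table held a peak.

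ENO1 encodes enolase, which makes phosphoenolpyruvate, and lies on chromosome 1 from 8861000 to 8878686. It had the highest median −log10 q of the 10 genes, 83.0. From 5′ to 3′, the 9 wild-type peaks lay at 0.469%, 21.6%, 38.4%, 65.2%, 69.4%, 75.5%, 83.2%, 87.3% and 98.5% of the span. In the same order their fold enrichments were 10.5, 7.34, 17.2, 26.8, 12.2, 7.74, 7.43, 10.7 and 16.8. Fold enrichment was thus highest at 65.2% of the span, at the peak from 8867074 to 8867227, which ranked 26 of 2149 by fold enrichment and 9 by −log10 q. The −log10 q values were 90.9, 27.3, 59.6, 249, 75.3, 85.1, 83.0, 81.0 and 167, and 8 of the 9 were in the highest 10% of the wild-type list, the exception being the second peak. The peak at the 3′ end, from 8860979 to 8861369, ranked 21 by −log10 q.

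PKM, the pyruvate kinase gene, lies on chromosome 15 from 72199029 to 72231591. Its 12 wild-type peaks were many but mostly low. From 5′ to 3′ the fold enrichments were 9.33 at 1.46% of the span, 4.72 at 38.6%, 16.0 at 43.6%, 3.37 at 65.1%, 4.15 at 67.1%, 2.71 at 70.0%, 10.2 at 75.0%, 7.23 at 76.2%, 2.72 at 89.3%, 5.09 at 95.4%, 3.93 at 98.6% and 4.03 at 99.8%. The peaks at 43.6% and 75.0% stood above their neighbours, and the median over the 12 was 4.44, which is 12.8 as a median percentile of the wild-type list. By −log10 q the median percentile was 73.1, and the values ran from 12.0 to 55.8. The summit near the start lay 476 bp into the annotated span and 75 bp after the start in the promoter table.

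The lactate dehydrogenase subunits differed in number of peaks and in their highest value. LDHA, on chromosome 11 from 18394563 to 18408425, had 3 wild-type peaks, with fold enrichments of 14.1 at 17.1% of the span, 10.3 at 66.4% and 7.26 at 92.0%. Fold enrichment fell from the 5′ to the 3′ peak, while −log10 q was 23.3, 26.2 and 16.9, highest at the middle peak. LDHB, on chromosome 12 from 21635342 to 21657842, had 6. Their fold enrichments were 9.21 at 0.444%, 27.1 at 14.5%, 40.8 at 61.6%, 6.40 at 70.5%, 10.3 at 92.1% and 7.99 at 99.1%. The peak of 40.8, from 21643891 to 21644079, ranked 5 of 2149 by fold enrichment and was the highest of the 46. The peak of 27.1 ranked 22. LDHA had no mutant peak and LDHB had 1 for 3A.

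Fold enrichment and −log10 q placed these genes differently. By fold enrichment the 46 wild-type peaks had a median of 7.59, against 8.11 over all 2149, and a median percentile of 45.0 (95% order-statistic interval 30.2 to 60.2). By −log10 q the median was 30.02 against 17.8, and the median percentile 74.0 (64.2 to 91.4). The highest 10% of the list, 9.96% of all wild-type peaks by construction, held 7 of the 46 by fold enrichment (15.2%, 95% Wilson interval 7.57 to 28.2) and 16 of the 46 by −log10 q (34.8%, 22.7 to 49.2). The gap was widest in GAPDH, with median percentiles of 20.2 by fold enrichment and 93.2 by −log10 q, and in PKM. It ran the other way in HK1, at 45.6 and 16.3, and slightly in LDHA, at 67.4 and 63.5. Median width was 160.5 bp in the 46 and 165 bp in all wild-type peaks. These intervals cover counting error over peaks only, and peaks of 1 gene share their RNA.

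**Figure D2:**
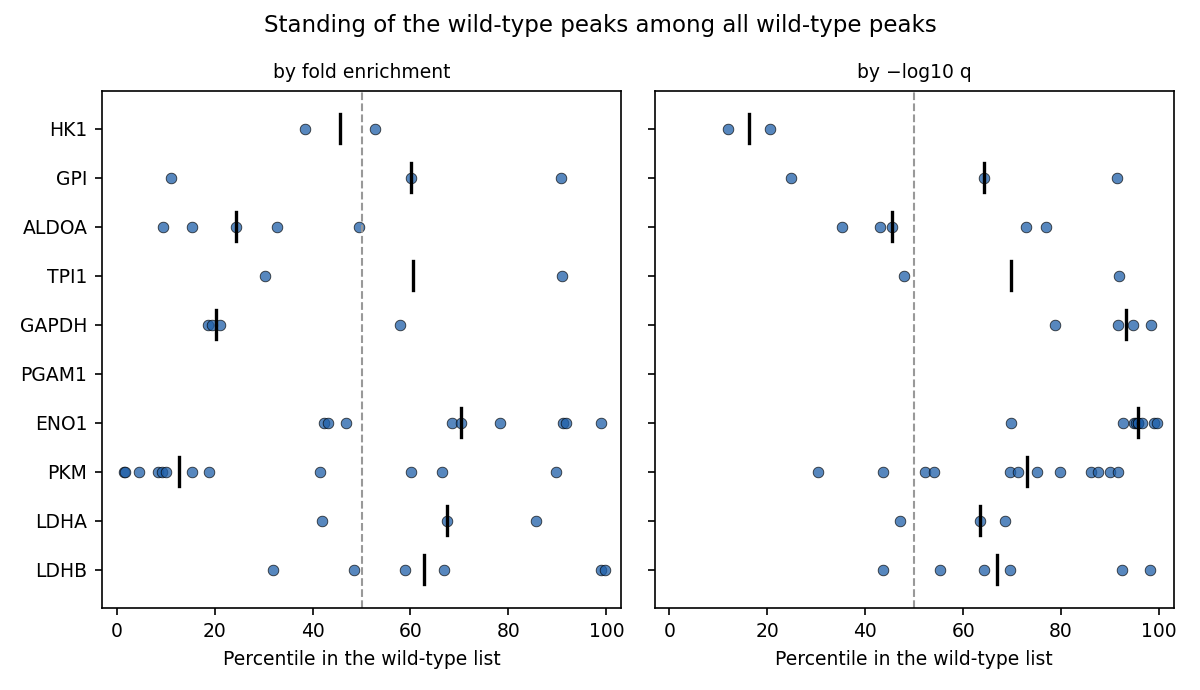
Each point is a wild-type peak of the gene named at left, placed at its percentile among the 2149 wild-type peaks by fold enrichment (left panel) or by −log10 q (right panel); black bars are medians per gene and the dashed line is the median of the list. GAPDH and PKM lie low in the left panel and high in the right, ENO1 lies high in both, and PGAM1 has no point.

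Along the gene, most wild-type peaks of the 10 genes lay beyond 60% of the span. Of the 46 summits, 19 lay in the last 20% of the span (41.3%, 95% Wilson interval 28.3 to 55.7) and 15 between 60% and 80% (32.6%, 20.9 to 47.0). Over the 1953 wild-type peaks in protein-coding genes these parts held 20.7% and 9.88%. The first 20% held 6 of the 46 (13.0%), against 51.2% over all. Within 500 bp of the gene start there were 4 of the 46 (8.70%, 3.43 to 20.3), against 43.2% over all. These 4 were the first peaks of ENO1, LDHB, TPI1 and PKM, with summits 83, 100, 224 and 476 bp into the span. They lay in 4 of the 9 genes with a wild-type peak. A share of peaks depends on how many peaks each gene holds. The gap to 43.2% is therefore not read as fewer genes with a peak near the start. From 20% to 40% of the span there were 4 (8.70%) and from 40% to 60% there were 2 (4.35%), against 9.42% and 8.76%. The share in the last 20% was lower without the peaks of lower fold enrichment. That cut also leaves out peaks that stand high by −log10 q, such as the GAPDH peak at 82.8% of the span, rank 35 of 2149. The same cut by −log10 q was not made. Of the 46, 20 reached the median fold enrichment of the wild-type list, and of these 5 lay in the last 20% of the span (25.0%), against 16.1% of 964 such peaks over all protein-coding genes, and 4 within 500 bp of the start (20.0%), against 47.8%.

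The share near the start was lower in genes with several peaks. Among the 584 wild-type peaks of other protein-coding genes with at least 3 wild-type peaks, 19.2% lay within 500 bp of the start and 27.1% in the last 20% of the gene. Both shares lay between those of the 10 genes and those of all protein-coding genes. Among peaks that reached the median fold enrichment they were 25.2% and 21.3% of 282 peaks, closer to the 20.0% and 25.0% of the 10 genes. This holds for a cut by fold enrichment only, by which GAPDH and PKM stand much lower than by −log10 q. The difference between the 10 genes and these was not tested, since the genes were chosen with the results known and their peaks are not independent. By gene, the last 20% held 4 peaks of PKM, 3 each of ENO1 and ALDOA, 2 each of HK1, GAPDH and LDHB, and 1 each of GPI, TPI1 and LDHA. All 9 genes with a wild-type peak therefore had one there. No such share over other genes is given here, so this is not read as a trait of the 10 genes.

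**Figure D3:**
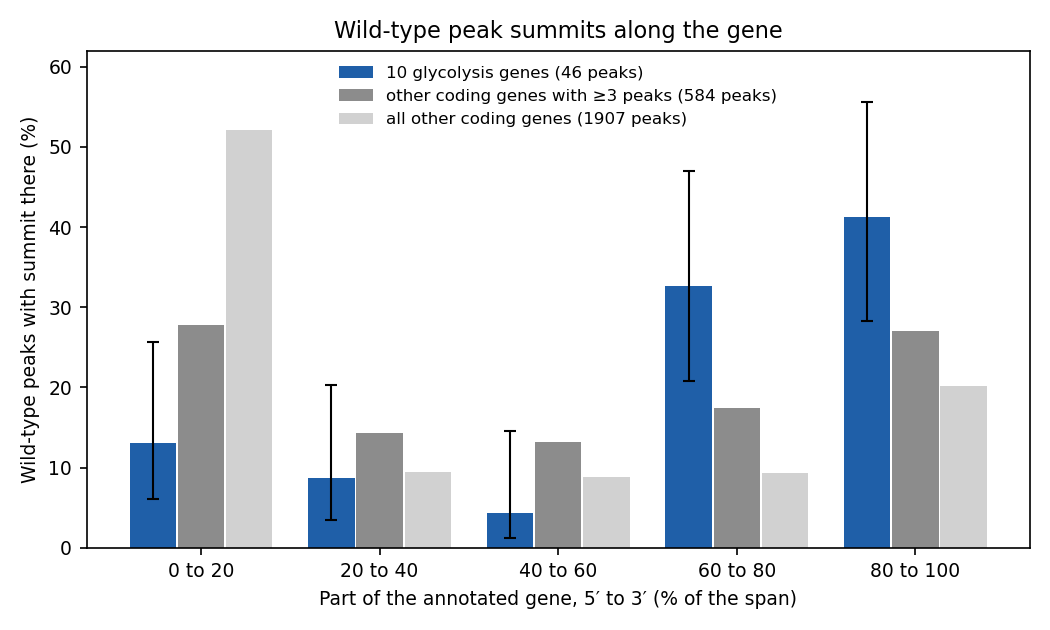
Percent of wild-type summits in each 20% of the annotated gene, from the 5′ end to the 3′ end, for the 10 glycolysis genes (46 peaks; bars show 95% Wilson intervals), other protein-coding genes with at least 3 wild-type peaks (584 peaks) and all other protein-coding genes (1907 peaks). In the glycolysis genes the parts beyond 60% hold 32.6% and 41.3%. The first 20% holds 52.1% in all other coding genes and 27.7% in those with at least 3 wild-type peaks.

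By number of wild-type peaks, the protein-coding genes most like PKM and ENO1 were FASN, the fatty acid synthase gene, with 11, EEF2, which encodes an elongation factor, with 9, and with 8 each SCD (a desaturase of fatty acids), HSP90AB1 (a chaperone) and EEF1A2 (an elongation factor). They were taken as the 5 genes outside the 10 with the most peaks, with ties broken by the highest fold enrichment, which left out EIF4G1, also with 8. Of their peaks, 1 lay within 500 bp of a start, in SCD. In the last 20% lay 4 in FASN, 3 each in EEF2 and EEF1A2 and 2 each in SCD and HSP90AB1. A 3A peak met 2 wild-type peaks in EEF2 and 2 in HSP90AB1.

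The 3A mutant had peaks in 4 of the 10 genes, ENO1, PKM, GAPDH and LDHB, against 0.359% of protein-coding genes. They numbered 10 of the 103 in the list (9.71%, 95% Wilson interval 5.36 to 17.0), while the 46 wild-type peaks were 2.14% of theirs. ENO1 alone had 6, the most of any gene in the 3A list, PKM had 2 and the others 1 each. When the wild-type list was cut to its 103 peaks with the greatest −log10 q, 8 lay in the 10 genes (7.77%, 3.99 to 14.6). When it was cut to the 103 peaks with the highest fold enrichment, 3 did (2.91%). The share in a wild-type list as short as that of 3A thus depended on the measure used to rank it.

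Each of the 10 3A peaks met a wild-type peak on the same strand, against 78.6% of all 3A peaks, and each lay wholly inside it. Of the 81 3A peaks that met a wild-type peak anywhere, 60 lay wholly inside one (74.1%). Counted from the wild-type side, 9 of the 46 peaks were met by 3A (19.6%, 95% Wilson interval 10.7 to 33.2), against 3.54% of the whole list. These were 5 in ENO1, 2 in PKM and 1 each in GAPDH and LDHB. None of the 4 wild-type peaks near a gene start was met, which says little where 3.54% of the whole list was met.

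The summits nearly coincided. The distance from a 3A summit to the wild-type summit was 2, 5, 6, 0, 0 and 188 bp for the ENO1 peaks from 5′ to 3′. It was 1 and 46 bp in PKM, 1 bp in GAPDH and 1 bp in LDHB. Thus 8 of the 10 lay within 6 bp, and the median was 1.5 bp, against 9 bp for the 71 other 3A peaks that met a wild-type peak. The peak at 188 bp is the second of a pair that lies under 1 wide wild-type peak of 391 bp at the 3′ end of ENO1.

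In ENO1 the order of the peaks by fold enrichment within each list was the same at the 5 shared places, taking the higher of the pair at the 3′ end. The 3A values were 12.6 at 65.2% of the span, 7.81 at 98.5%, 6.17 at 69.5%, 5.44 at 75.5% and 3.50 at 83.2%. The wild-type values at these places were 26.8, 16.8, 12.2, 7.74 and 7.43. By −log10 q the order differed. The wild-type −log10 q was 75.3 at 69.4% of the span and 83.0 at 83.2%, while that of 3A there was 21.1 and 15.3. The lists have their own scale, so the values themselves were not compared. By fold enrichment the highest 3A peak of the 10 genes was in LDHB, from 21643893 to 21644060, on the wild-type peak of 40.8. It had a fold enrichment of 14.7 and rank 11 of 103. The 3A peak in GAPDH had 3.05 and rank 87, and those in PKM had 4.88 and 2.86, with ranks 59 and 92. By −log10 q the LDHB peak ranked only 62 of 103, and the highest was the ENO1 peak at 65.2% of the span, rank 18.

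**Figure D4:**
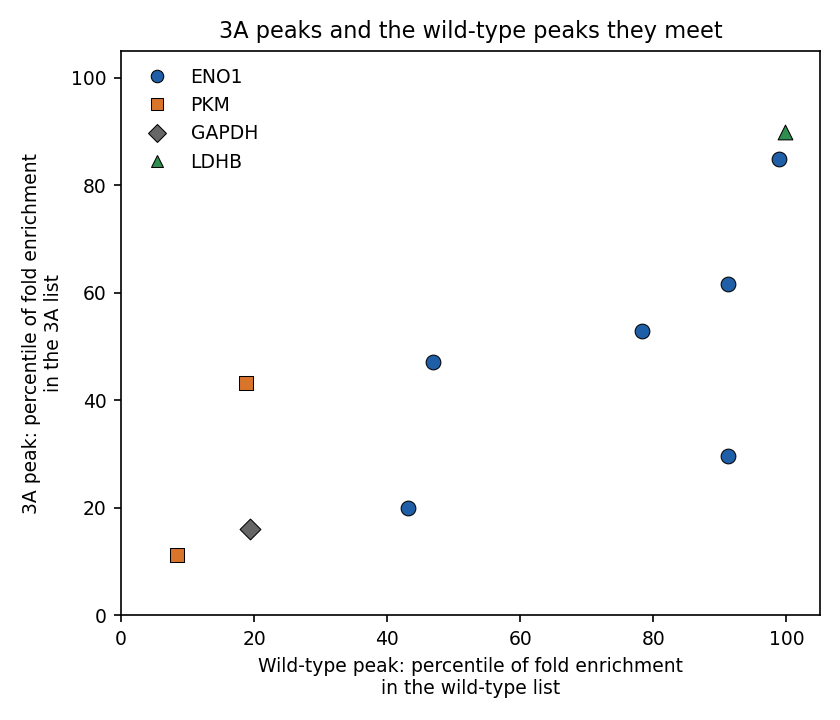
For each of the 10 3A peaks in these genes, its percentile of fold enrichment in the 3A list (vertical axis) against that of the wild-type peak it meets in the wild-type list (horizontal axis); 2 ENO1 points share a wild-type peak. LDHB and the strongest ENO1 peak lie at the upper right, at wild-type percentiles of 99.8 and 98.8, and GAPDH and a PKM peak lie at the lower left.

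The wild-type peaks met by 3A stood high by −log10 q, with a median percentile of 95.8 in 9 peaks against 69.5 in the 37 others. By fold enrichment the medians were 46.8 and 42.4. Of the 8 wild-type peaks of these genes among the first 103 by −log10 q, 6 were met by a 3A peak, against 36.9% of those 103. The 2 that were not met were in ENO1, at its start (−log10 q 90.9) and at 87.3% of the span (81.0). Of the 38 others, 3 were met.

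The 7A mutant had a peak in 1 of the 10 genes, PKM, against 0.269% of protein-coding genes. It lay on chromosome 15 from 72218910 to 72219020, at 38.7% of the span, with a fold enrichment of 3.93 and rank 74 of 88. It lay wholly inside the wild-type peak of 4.72, with 32 bp between the summits, while 34.1% of all 7A peaks met one, and no 3A peak met that wild-type peak. So 1 of the 46 wild-type peaks was met by 7A (2.17%, 95% Wilson interval 0.385 to 11.3), against 1.40% of all wild-type peaks. PKM was the 1 gene of the 10 with peaks of all 3 alleles, with 3A and 7A at different places. ENO1, with 6 peaks for 3A, had 0 for 7A. Of the 88 wild-type peaks with the greatest −log10 q, 5 lay in the 10 genes and 7A met 0 of these 5 (95% Wilson interval up to 43.4%), against 11.4% of the 88.

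For the other genes of the pathway, the counts with a wild-type peak are read against the 6.78% of all protein-coding genes. Of 19 that encode isozymes or the remaining steps, among them HK2, the 3 phosphofructokinase genes and ENO2, 1 had a wild-type peak, a share near that of all genes. This was PGK1, the phosphoglycerate kinase gene, with 3. The first, from 78103815 to 78104399 on chromosome X, had a fold enrichment of 331, and began upstream of the annotated start at 78104248. Its summit lay 154 bp before that start. At the same place 3A had a peak of 17.9 and 7A one of 7.40, with summits 14 and 20 bp after the start. Whether this RNA is PGK1 transcript was not tested. The other 2, at 38.4% and 82.8% of the gene, had 6.997 and 6.88, within the range of the 10 genes. The other 18 genes had no peak in any list. Of 14 genes of glucose and lactate transport and of control of the pathway, 2 had a wild-type peak. The lactate transporter gene SLC16A1 had 3, with fold enrichments from 5.17 to 18.0. BSG, whose product accompanies that transporter to the membrane, had 1 of 3.59. Neither had a mutant peak.

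Pseudogenes of these genes elsewhere in the genome also held wild-type peaks. Of 102 pseudogenes named after the 10 genes, 9 held 11 wild-type peaks, where 2.75% of all genes had one. No share over all pseudogenes is given here. None held a mutant peak, which says little where 0.359% of protein-coding genes had a 3A peak and 0.269% a 7A peak. ENO1P1 on chromosome 1 had 3, with fold enrichments of 13.9, 8.15 and 14.3. LDHAP5 had 1 of 18.8, rank 121 of 2149, above the highest value in LDHA itself. LDHBP2 had 16.1, TPI1P1 11.8, PKMP5 10.9 and LDHAP4 9.70. GAPDH has 65 pseudogenes in the table, and 3 of them had a peak, with values from 5.58 to 6.55. Such copies are closely similar to their parents, so reads can be placed at either, and the gene of origin of these 11 peaks, and part of the height of the peaks in the parents, is uncertain.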

How the data were processed

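The data are 3 deposited peak lists in narrowPeak layout, 1 for each MYC allele with doxycycline, assigned to the precipitated libraries of that allele through the names of the lists and the sample titles. Per the submitters' processing notes, the tools were cutadapt, BWA and MACS2 and the build was hg38. Tool versions and settings, the control, and any pooling of replicates are not given in the sources used. Each deposited peak has a fold enrichment, a ratio over an unnamed control, a −log10 p and a −log10 q, a score that is the −log10 q on a coarser scale, and a summit given as an offset in bp. These values are the authors' and were used only within a list. Depth is unknown.

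The 10 genes and all gene lists were chosen with earlier results of these data known. Coordinates were made 1-based. Gene spans came from a RefSeq table of GRCh38.p14 with 59792 placed genes, of which 20056 are protein-coding. Strand and start sites came from the RefSeq promoter table, which held all 10 genes. A gene without an entry there took the strand of the peak. For shares over all peaks each peak was given to the shortest protein-coding gene on its strand. Percentiles count the peaks of a list with lower values, ties shared. Named were all 10 genes, the 5 other protein-coding genes with the most wild-type peaks, pathway genes with a peak, and pseudogenes of the 10 with a peak. A single gene selected by this rule is not reported here. No test was made. Intervals are Wilson intervals for shares and binomial order-statistic intervals for medians, at 95%. Tried instead were only peaks with −log10 q from 5 upward, only peaks in the upper range of fold enrichment, the summit in the gene, spans widened by 500 bp, the strand of the gene only, merging of peaks under 50 bp apart, ranking by −log10 q, other start windows and stricter overlaps. The functions for overlap and position were tested on simulated data and recovered what had been planted. Python 3.11.15, pandas 2.3.3, NumPy 2.4.6, SciPy 1.17.1 and Matplotlib 3.10.9 were used.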

Additional observations from a re-analysis of the deposited data

How the results depend on the processing

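Of 83 alternative values of 12 results, 73 stayed within 1.5 times the value given, or within its 95% interval for shares and the median. Some settings had nothing to change. Merging left 2149, 103 and 88 peaks, all 57 peaks were already on the strand of their gene, and their summits already lay inside it. The unchanged values of these settings are among the 73, so that count is no measure of how firm the results are. Dropping all peaks below the median fold enrichment within each list left 20 wild-type peaks, 4 3A peaks and 0 7A peaks in the 10 genes. Genes with a 3A peak then numbered 2 and with a 7A peak 0, and 4 wild-type peaks were met by 3A and 0 by 7A. Then 25.0% of wild-type summits lay in the last 20% and 20.0% within 500 bp of the start. By construction this setting removes about the lower part of each list. Ranking by −log10 q in place of fold enrichment moved the median percentile to 74.0. Spans widened by 500 bp gave 3 other glycolysis genes with a wild-type peak in place of 1, adding ENO3, whose peak lay on the opposite strand 227 bp away, and GAPDHS. Chosen after seeing the data were the nearest start of the promoter table, with 10.9% of summits within 500 bp, and leaving out PKM and ENO1, with 8% within 500 bp and 48.0% in the last 20%. No paired analysis was possible because the lists are per allele and carry no replicate values, so leaving out a replicate could not be done either. Unknown depth and the short mutant lists limit every count of mutant peaks.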

Other observations

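Neighbouring pathways of carbon metabolism held wild-type peaks in some genes. No mutant peak lay in them, where 0.359% of all protein-coding genes had a 3A peak and 0.269% a 7A peak. Of 7 genes of the pentose phosphate pathway, which branches from glucose 6-phosphate, 3 had a wild-type peak, against 6.78% of all protein-coding genes. TKT, the transketolase gene, had 4, with fold enrichments of 11.6 at its start, 24.2 at 50.3% of the span, 8.97 at 66.9% and 7.70 at 96.4%. The peak of 24.2 ranked 39 of 2149. PGD, a dehydrogenase of the pathway, had 1 of 7.48 at 96.5% of the span, and RPIA, an isomerase, had 1 of 6.43 near its start.

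Of 19 genes of the tricarboxylic acid cycle, 5 held a wild-type peak and 14 held none, where 6.78% of all protein-coding genes had one. Of the 5, 3 had a peak on the strand given for the gene. MDH2, the mitochondrial malate dehydrogenase gene, had 4, with fold enrichments of 4.33 to 15.3 from its start to 94.4% of the span. CS, the citrate synthase gene, had 1 of 11.2 at its start, and SUCLG1, a succinate-CoA ligase subunit gene, had 1 of 6.21. The peak at the edge of IDH3B lay on the strand opposite to the gene. These lists were written with earlier results of these data known, and no test was made of them.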
